A study of Mus musculus with 6 samples.

Results

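Erythroid cells of the E14.5 fetal liver and of the P8 bone marrow were compared on 1 slide by in situ imaging of transcripts with the Xenium platform, in which padlock-type probes for a fixed gene panel are decoded one molecule at a time. A segmented cell was taken as erythroid when it held at least 5 counts of Slc4a1, which encodes the band 3 anion exchanger of the red cell membrane, and no count of C1qa, C1qb or C1qc, the complement C1q chains that mark the macrophages of erythroblastic islands. The cells were thus chosen by their measured Slc4a1 and C1q counts, and these 4 genes entered no comparison. This rule gave 61432 of 117329 cells in the liver (52.4%, exact binomial interval 52.1% to 52.6%) and 12403 of 52594 cells in the marrow (23.6%, 23.2% to 23.9%). Together these were 73835 of the 169923 cells in both sections, and the series held 521938 cells in 6 sections. Before the C1q condition, 92677 liver and 22748 marrow cells held at least 5 Slc4a1 counts. Of the cells that this condition left out, 13912 and 4583 held a single C1q count. The percentages are therefore shares of gated cells, not of all erythroid cells. Of the cells without C1q counts, 4225 in the liver and 1460 in the marrow held 4 counts of Slc4a1, just under the threshold, and 4239 and 1321 held 5.

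Both samples came from wild-type C57BL/6 mice bought from the Jackson Laboratory. The liver was taken from an embryo at embryonic day 14.5 and the marrow from the femur of a mouse at postnatal day 8, and the labels name no treatment. Each tissue was fixed in formalin, embedded in paraffin and cut at 5 µm, and each was represented by 1 section, so tissue, age and animal cannot be told apart. The panel held 477 genes, and both sections were imaged in the same run.

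Red cells arise from progenitors that depend on erythropoietin, divide as erythroblasts while hemoglobin accumulates, and finally lose their nucleus. In the mouse fetus this takes place mainly in the liver, among hepatocyte precursors, and after birth in the marrow, among maturing granulocytes. The receptor Epor and the transcription factors Gata1 and Klf1 are central to this program. GATA1 binds short GATA motifs and KLF1 binds CACCC motifs in the regulatory sequence of red cell genes.

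The 160 bases before the start of Klf1, Gata1 and Epor, genes of this program whose ratios between the sections were similar and within 2-fold, and of the interferon-induced gene Rsad2, which had one of the largest differences, are shown 5′ to 3′ from RefSeq on the GRCm38.p6 build. They lie at chr8:84901822-84901981 on the plus strand for Klf1, at chrX:7967911-7968070 on the minus strand for Gata1, at chr9:21963577-21963736 on the minus strand for Epor and at chr12:26456453-26456612 on the minus strand for Rsad2. Capitals mark a match, on either strand, to AGATAA or AGATAG or TGATAA or TGATAG (the GATA letters), to CACCC, or to the interferon response motif, which is GAAA followed by a second GAAA after a gap of 2 bases.
Klf1: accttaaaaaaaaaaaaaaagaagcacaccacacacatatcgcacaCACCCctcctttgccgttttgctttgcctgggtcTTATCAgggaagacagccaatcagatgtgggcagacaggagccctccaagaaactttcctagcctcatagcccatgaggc
Gata1: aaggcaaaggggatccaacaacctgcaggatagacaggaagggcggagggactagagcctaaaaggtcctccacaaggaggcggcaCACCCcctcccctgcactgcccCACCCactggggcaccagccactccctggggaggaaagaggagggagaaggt
Epor: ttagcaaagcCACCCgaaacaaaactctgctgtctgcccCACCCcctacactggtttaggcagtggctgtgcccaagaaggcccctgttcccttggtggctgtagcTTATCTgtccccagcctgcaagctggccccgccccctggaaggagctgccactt
Rsad2: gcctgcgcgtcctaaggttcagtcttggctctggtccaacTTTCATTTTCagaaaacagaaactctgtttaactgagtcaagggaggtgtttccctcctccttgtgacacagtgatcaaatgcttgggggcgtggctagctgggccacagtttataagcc
The Klf1 window held 1 GATA and 1 CACCC match, the Gata1 window 2 CACCC matches, the Epor window 1 GATA and 2 CACCC matches, and the Rsad2 window 1 interferon response match. Among 32851 mouse promoter windows of this length, 17.1% held the GATA letters, 39.2% held CACCC and 1.72% held the interferon response letters. A match is a description of letters and was not tested as a binding site.

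The erythroid cells yielded 11317286 counts in the liver and 1622503 in the marrow. The median was 173 counts per cell in the liver and 121 in the marrow, with median cell areas of 48.0 and 40.1 µm², and median Slc4a1 counts of 12 and 10. Levels are given as CPM, the counts scaled to a total of 1000000 over all erythroid cells of a section, and differences as the log2 ratio of liver to marrow, positive where liver was higher. With 1 section per group no test was possible, so 2-fold was used as the line for calling a difference, and the intervals (exact, at 95% confidence) cover counting error only. The 20 negative control probes averaged 1.69 CPM in the liver and 1.11 CPM in the marrow. No doublets were called, and 3 cell names occurred in both sections. Levels of different genes were not compared as expression, because probes differ in number and efficiency between genes, and an order among genes of a list is one of counts only. A smaller share of cells with a transcript and fewer transcripts per cell cannot be told apart in such a pooled level.

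The label of the gate was checked with 12 other erythroid markers, chosen from the 35 erythroid genes of the panel. All 12 were more than 2-fold higher in the gated cells than in the cells of the same section without any Slc4a1 count, by log2 ratios of 1.30 to 3.33 in the liver and 2.60 to 5.41 in the marrow. Of the 35 genes, 16 in the liver and 23 in the marrow were at least 2-fold higher in the gated cells. In both sections at once 16 of the 35 were, beside 5.11% of all genes compared. Others of the 35 were lower in the gated cells, down to log2 ratios of −2.80 in the liver and −4.26 in the marrow. The comparison cells numbered 3464 in the liver, or 2.95% of the section, and 17870 in the marrow, or 34.0%. In the marrow section they included cells of cartilage, muscle and stroma as well as of blood, with summed levels of 135880 CPM for 5 cartilage genes and 57705 CPM for 8 muscle genes. Between these comparison cells of the sections, 40.4% of the genes compared were at least 2-fold higher in the liver and 20.7% in the marrow, or 61.1% in either direction. The summed level of the 35 erythroid genes in the gated cells was 586773 CPM in the liver and 567706 CPM in the marrow. In the cells without Slc4a1 it was 235790 CPM in the liver and 83112 CPM in the marrow. The comparison cells, those of the liver above all, are thus not a background free of erythroid transcripts.

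Of the 473 genes that the rule did not use, 450 had at least 100 counts over both sections. Among them 84 were at least 2-fold higher in the liver (18.7% of those compared) and 162 at least 2-fold higher in the marrow (36.0%), or 54.7% in either direction. Of the 35 erythroid genes, 6 were higher in the liver (Plek2, Podxl, Gamt, Ndufa4l2, Ldhb and Ndufs8), 4 were higher in the marrow (Ctse, Isg20, Cd36 and Aqp1) and 25 lay within 2-fold. The count toward the liver was near the share over all genes, and the count toward the marrow was below it. The median log2 ratio of the erythroid genes was 0.31, against −0.60 over all 450 genes. This gap depended on which genes and cells entered. The median of all genes was 0.17 over genes with at least 1000 counts and −0.02 in cells with at least 20 Slc4a1 counts. In the cells without counts of 5 other cell types, described further on, that median was 0.09, beside 0.11 for the erythroid genes. Marker genes of those 5 types had no counts there by the choice of cells, and 25 of the genes left were erythroid. These last 2 medians thus rest largely on the same genes and cannot measure the gap. Counts per cell in place of CPM added 0.49 to every log2 ratio, moved the median of all genes to −0.10, and turned the sign for some genes near equality, among them Hbb-bt, Car2, Cd44 and Slc14a1.

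**Figure D1:**
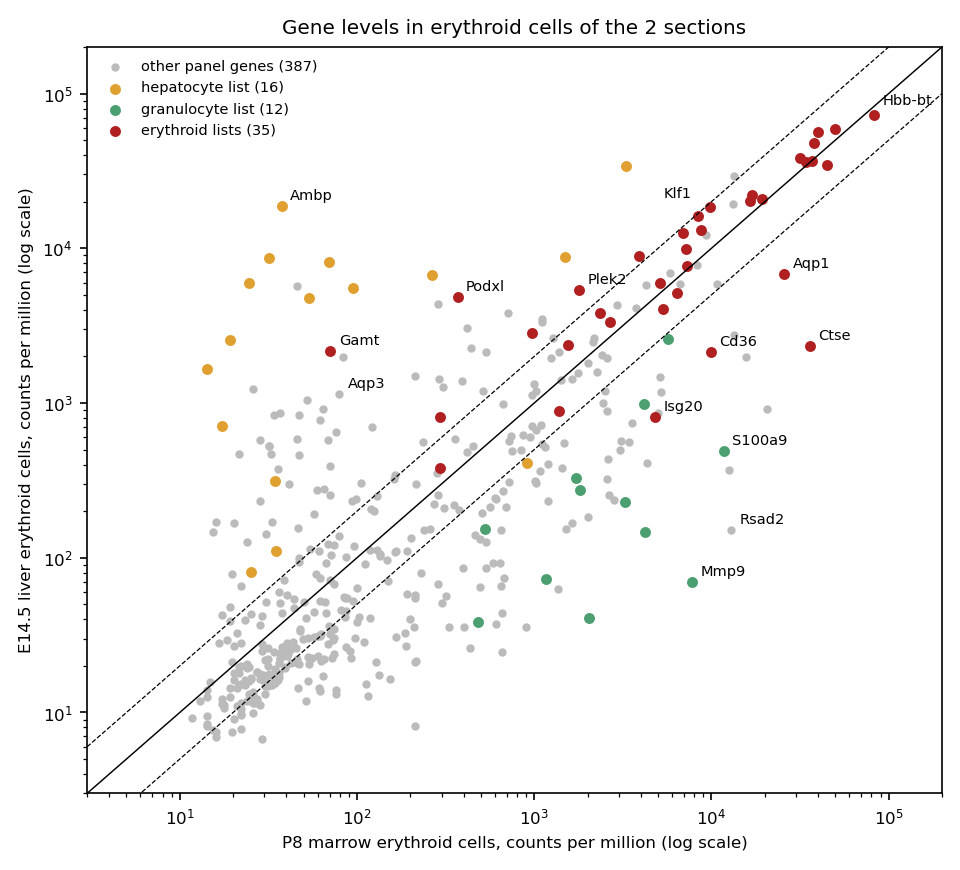
Level of each of the 450 genes in erythroid cells of the E14.5 fetal liver (y axis) and of the P8 bone marrow (x axis), in CPM on log axes. Each point is 1 gene, colored by list (35 erythroid, 16 hepatocyte, 12 granulocyte and all other genes), the solid line is equality and the dashed lines are 2-fold. Most erythroid genes lie between the dashed lines, the granulocyte genes lie below them and all but 1 of the hepatocyte genes above them.

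Heme synthesis and iron uptake differed little. Fech, which inserts iron in the last step of heme synthesis, had 59430 CPM in the liver and 49521 CPM in the marrow, a log2 ratio of 0.26 (0.25 to 0.27). The mitochondrial iron importer Slc25a37 had the largest difference of the group, with 56198 CPM against 39893 CPM and a log2 ratio of 0.49 (0.48 to 0.51). Isca1, which assembles iron–sulfur clusters, had a log2 ratio of 0.29, and the transferrin receptor Tfrc one of 0.07 (0.06 to 0.08). All 5 genes of heme and iron thus lay within 2-fold, where 54.7% of all genes compared were past it. Each of the 5 was slightly higher in the liver. The adult beta-globin gene Hbb-bt was slightly lower there, with 72774 CPM in the liver and 82676 CPM in the marrow, a log2 ratio of −0.18. Hbb-bt is a close copy of other beta-globin genes, and how far its probe separates them is not given in the sources used here.

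Genes of the red cell membrane divided into those at nearly equal level and those higher in the marrow. Rhd, the gene of the Rh blood group protein, had 20918 and 19218 CPM, a log2 ratio of 0.12. The water channel gene Aqp1, in contrast, had 6783 CPM (6735 to 6831) in the liver and 25817 CPM (25570 to 26065) in the marrow, and was 3.81-fold higher in the marrow. Cd36, a fatty acid transporter and scavenger receptor of early erythroid cells, had 2126 CPM (2099 to 2153) and 9891 CPM (9738 to 10045), and was 4.65-fold higher in the marrow. For Cd36 the erythroid cells exceeded the Slc4a1-free cells by log2 ratios of only 0.36 in the liver and 0.72 in the marrow, and the Slc4a1-free cells showed a liver-to-marrow log2 ratio of −1.86 themselves. For Aqp1 that ratio was −0.21. The urea transporter Slc14a1, the carbonic anhydrase Car2 and the adhesion receptor Cd44 leaned the same way by less than 2-fold, with log2 ratios of −0.31, −0.38 and −0.40.

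**Figure D2:**
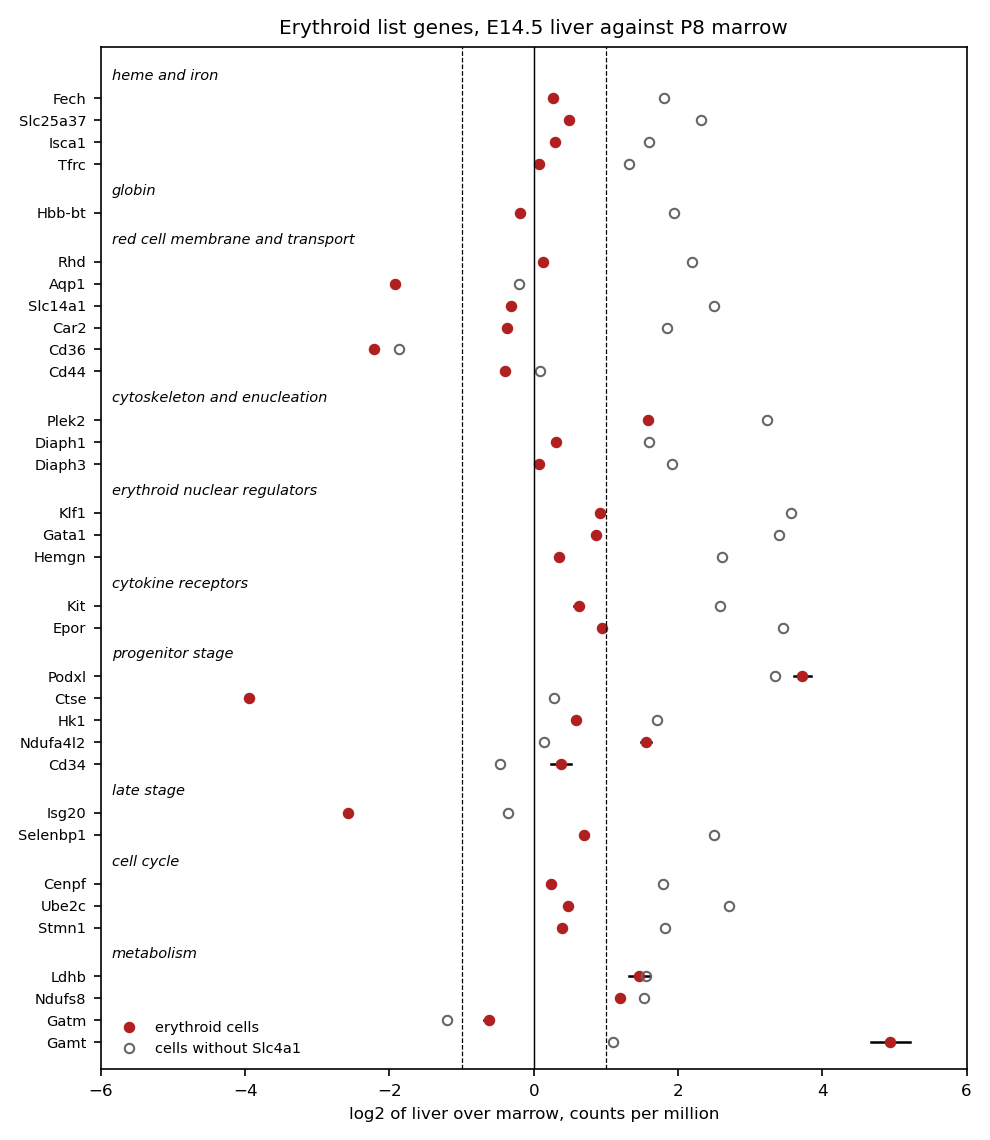
Log2 ratio of liver to marrow for the erythroid genes named in the text (filled points, with 95% intervals of counting error) and for the same genes in cells without Slc4a1 (open circles); the dashed lines mark 2-fold. The filled points run from −3.95 for Ctse to 4.94 for Gamt, and most of them lie between the dashed lines.

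Ctse, which encodes the intracellular aspartic protease cathepsin E, had the largest difference of the erythroid genes in the marrow direction. Its level was 2339 CPM (2310 to 2367) in the liver and 36123 CPM (35831 to 36416) in the marrow, 15.4-fold higher in the marrow, or 0.431 against 4.73 counts per cell. Isg20, an interferon-stimulated exoribonuclease, had 812 CPM (795 to 829) in the liver and 4831 CPM (4724 to 4939) in the marrow, a 5.95-fold difference. Both genes were higher in erythroid than in Slc4a1-free cells of the same section, Ctse by more than 2-fold in the liver and by a log2 ratio of 5.73 in the marrow, and Isg20 by log2 ratios of 1.91 and 4.13. In the Slc4a1-free cells the liver-to-marrow difference was small, with log2 ratios of 0.28 for Ctse and −0.36 for Isg20.

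Rsad2 was not on the erythroid list, but among the other genes it had one of the largest differences. This gene encodes viperin, an enzyme that interferon induces. It had 150 CPM (143 to 158) in the liver and 12934 CPM (12760 to 13111) in the marrow, a log2 ratio of −6.43 (−6.50 to −6.36). Within the marrow it was higher in the erythroid than in the Slc4a1-free cells, by a log2 ratio of 4.52, whereas within the liver it was lower, by −0.64. In the Slc4a1-free cells themselves the liver-to-marrow log2 ratio was −1.27.

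The remaining genes with the largest ratios toward the marrow were Mmp9, Mmp8, Stfa2l1, Ifitm6, Slamf7, Asprv1 and S100a9, with log2 ratios between −6.79 (Mmp9) and −4.59 (S100a9). Mmp8 and Mmp9 encode proteases of neutrophil granules and S100a9 a calcium-binding protein that neutrophils carry in large amounts. Stfa2l1 belongs to the stefin A family, whose genes are close copies of each other. In the liver direction the largest ratios were those of Ambp, Gc, Hpx, Hc, Krt8, Serpina10, Slc27a2 and Igfbp1, from 8.97 (Ambp, 18815 against 37.6 CPM) to 6.48 (Igfbp1). Most of these encode plasma proteins that hepatocytes secrete. Levels of such markers of other cell types in the gated cells were measured with the lists described further on.

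Among genes of the cytoskeleton, Plek2 stood out. Plek2 encodes pleckstrin-2, an actin-associated protein of late erythroblasts. Its level was 5347 CPM (5304 to 5390) in the liver and 1787 CPM (1723 to 1854) in the marrow, 2.99-fold higher in the liver. The erythroid cells exceeded the Slc4a1-free cells for Plek2 by log2 ratios of 2.67 in the liver and 4.33 in the marrow. Among the Slc4a1-free cells, too, Plek2 was more often found in the liver, by the shares of cells given below. The formin genes Diaph1 and Diaph3, whose products nucleate actin filaments, had log2 ratios of 0.31 and 0.08.

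The 3 nuclear regulators lay within 2-fold, where 54.7% of all genes compared were past it, and each level was higher in the liver. In the Slc4a1-free cells their median log2 ratio was 3.41, beside 0.69 over all genes compared. Klf1 had 18549 CPM (18470 to 18629) in the liver and 9798 CPM (9647 to 9952) in the marrow, a 1.89-fold difference. Gata1 had 12565 CPM (12500 to 12631) and 6908 CPM (6781 to 7037), a 1.82-fold difference. Hemgn, a nuclear protein of blood progenitors, differed less, with a log2 ratio of 0.35. Epor, the erythropoietin receptor gene, was 1.92-fold higher in the liver, with 16184 CPM (16110 to 16258) against 8423 CPM (8282 to 8565). Klf1, Gata1 and Epor thus shared nearly the same ratio, and the windows printed above are theirs. As counts per cell in place of CPM, all of them passed 2-fold. Kit, the receptor for stem cell factor on early progenitors, had 2379 and 1545 CPM, a log2 ratio of 0.62 (0.56 to 0.68).

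Genes that mark the progenitor stage, metabolism and division gave a mixed picture. Podxl, a sialomucin of progenitors and endothelium, was 13.2-fold higher in the liver, with 4856 against 369 CPM. Gamt, which completes creatine synthesis, was 30.7-fold higher there, with 2173 against 70.9 CPM. In the cells without counts of 5 other cell types, described further on, Gamt had 3 counts in each organ, a log2 ratio of 0.40 (−2.51 to 3.30), so its difference was not found there. Ndufa4l2, Ldhb and Ndufs8, genes of mitochondrial and lactate metabolism, were 2.94-fold, 2.74-fold and 2.28-fold higher in the liver. In the liver, all 5 of these genes were lower in the erythroid than in the Slc4a1-free cells, by log2 ratios between −1.86 (Ldhb) and −0.25 (Ndufs8), as were 86.9% of all genes compared. Hk1, the hexokinase of red cells, Selenbp1, Cd34 and the creatine synthesis gene Gatm had log2 ratios of 0.59, 0.70, 0.38 and −0.63. In the same cells without counts of 5 other cell types, Selenbp1 turned to −1.60 (−2.49 to −0.80), with 16 counts in the liver and 64 in the marrow, and Hk1 was at 0.10 (−0.18 to 0.38). The mitotic genes Cenpf, Ube2c and Stmn1 were all within 2-fold, where 54.7% of all genes compared were past it. Their log2 ratios were 0.24, 0.47 and 0.39. The sign turned for Cenpf with a quality score of at least 30 (−0.05), and for Stmn1 in the cells without counts of 5 other cell types (−0.11).

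The genes were also sorted by whether the erythroid cells exceeded the Slc4a1-free cells of the same section. In both sections 23 of the 450 genes (5.11%) did so by at least 2-fold. Of these, 2 were higher in the liver (Plek2 and Aqp3), 2 in the marrow (Ctse and Isg20), and 19 lay within 2-fold, where 18.7% and 36.0% of all genes compared were past 2-fold toward the liver and the marrow. Aqp3, a water and glycerol channel named after its values were seen, had 1145 CPM (1125 to 1165) in the liver and 79.5 CPM (66.4 to 94.5) in the marrow, 14.4-fold higher in the liver. Among the 10 erythroid genes past 2-fold, 5 exceeded the Slc4a1-free cells in both sections, namely Plek2, Ctse, Isg20, Aqp1 and Cd36. Of all 35 erythroid genes 23 did so, and of all genes compared 11.8%.

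Shares of cells with a count depend on depth, so each cell was also thinned to 100 counts, which left out 7084 liver and 3997 marrow erythroid cells (11.5% and 32.2%) that were shallower. Of the Slc4a1-free cells, 33.9% in the liver and 57.8% in the marrow were left out, which kept 2289 and 7534. After thinning, 19.6% of the liver and 89.2% of the marrow erythroid cells held a Ctse count (30.8% and 90.1% before thinning). In the Slc4a1-free cells, with median depths of 128 and 84 counts against 173 and 121, these shares were 6.64% and 4.06%. For Isg20 the thinned shares were 7.88% and 36.7% (13.2% and 43.4% before), against 1.83% and 2.08% in the Slc4a1-free cells. Ctse and Isg20 were therefore detected above the level of the Slc4a1-free cells in erythroid cells of both organs. For Rsad2 the share was 1.27% in the liver and 53.4% in the marrow (2.20% and 61.0% before). The Slc4a1-free cells had 1.79% and 4.43%, so the liver share of Rsad2 did not exceed that of the Slc4a1-free cells. Plek2 was held by 39.5% of the liver and 15.8% of the marrow erythroid cells (54.6% and 18.7% before), against 6.55% and 0.743% of the Slc4a1-free cells.

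Cells were next split by their Slc4a1 count into 5 to 9, 10 to 19 and 20 to 39 counts, which held 20484, 30185 and 10577 liver cells and 5978, 5505 and 911 marrow cells. The bins use raw counts, and median depth was 173 counts in the liver and 121 in the marrow. A bin therefore does not match the cells of the organs by their relative Slc4a1 level. Ctse ran from 2046 to 2383 and 2586 CPM over these bins in the liver and from 28476 to 39991 and 45912 CPM in the marrow. Plek2 had 3833, 5766 and 6259 CPM in the liver and 1339, 2100 and 2025 CPM in the marrow. Ctse, Isg20, Aqp1 and Cd36 were higher in the marrow and Plek2 was higher in the liver in every one of these bins. Klf1 had 17392, 18931 and 19108 CPM in the liver against 9047, 10353 and 9994 CPM in the marrow, so its ratio was similar in these bins. Kit behaved otherwise, with 4554, 1871 and 889 CPM in the liver and 2251, 1142 and 822 CPM in the marrow. Both Kit levels were thus close in the last of these bins. Cells with 40 or more Slc4a1 counts were few, 186 in the liver and 9 in the marrow. There Kit rested on 46 and 2 counts, and Klf1 was at 19670 and 14576 CPM, a log2 ratio of 0.43 on 1511 and 51 counts. Hbb-bt was slightly lower in the liver in each bin, with 59384, 75916 and 81831 CPM against 71988, 88457 and 94834 CPM in the marrow.

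**Figure D3:**
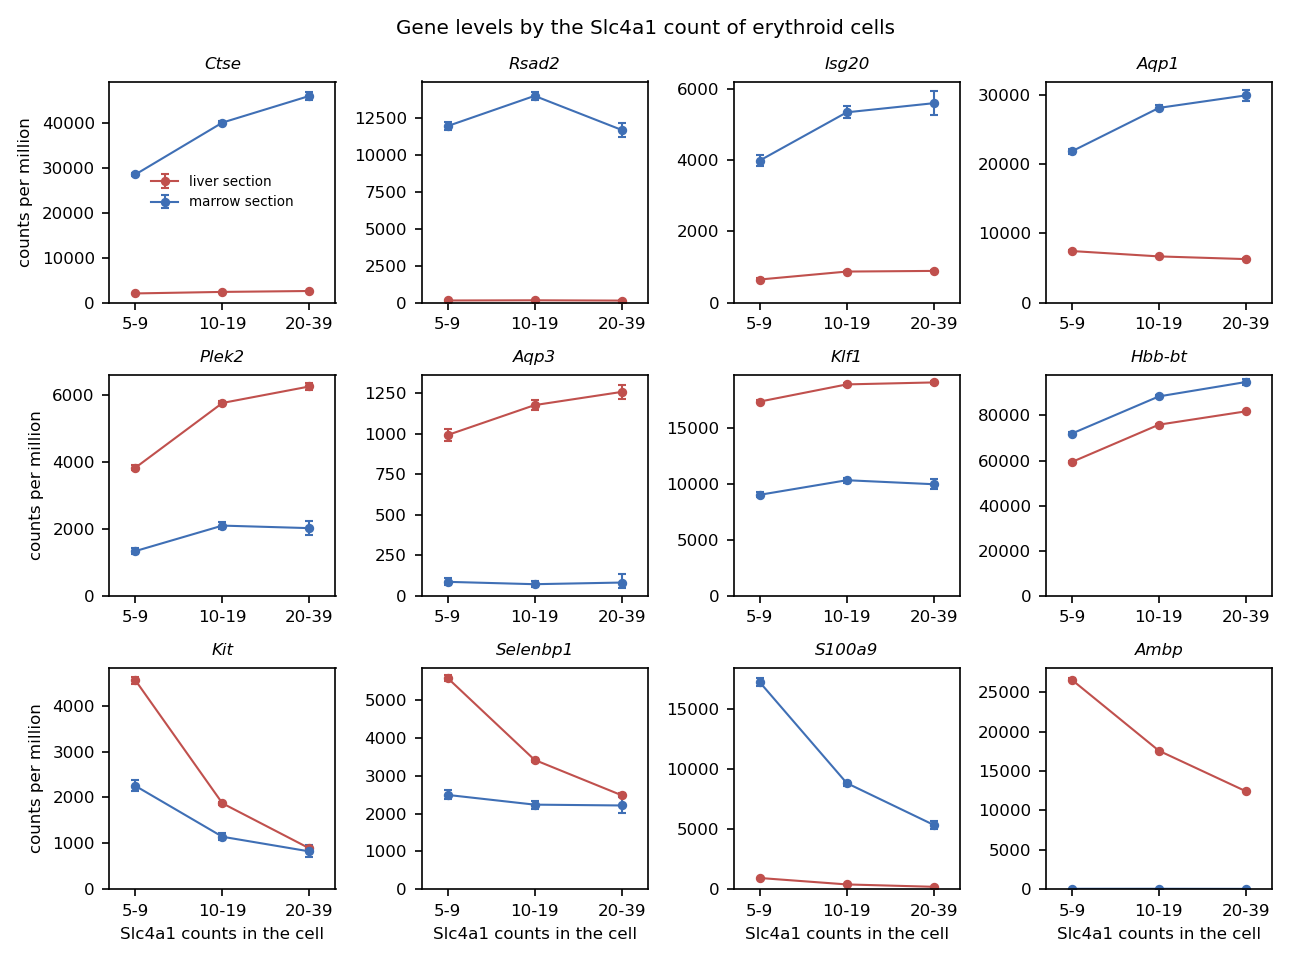
Level of 12 genes in CPM, per bin of Slc4a1 counts per cell (5 to 9, 10 to 19, 20 to 39), for erythroid cells of the liver and of the marrow; bars are exact 95% Poisson intervals. Ctse is at most 2586 CPM in the liver and at least 28476 CPM in the marrow in every bin, while the Kit levels of both organs approach each other in the last bin.

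The sections were also divided into squares of 200 µm, of which 194 of 270 with any erythroid cell in the liver and 67 of 153 in the marrow held at least 50 and were compared. Squares of 1 section are not replicates and show only how even a level was over the tissue. Ctse ran from 845 over a median of 2328 to 3690 CPM in the liver squares, and from 16416 over 35527 to 47086 CPM in the marrow squares. Isg20 ran from 179 over 805 to 1381 CPM in the liver and from 2524 over 4749 to 6734 CPM in the marrow. Neither gene overlapped between the organs. Rsad2 ran from 0 over 125 to 1571 CPM in the liver squares and from 3259 over 12409 to 18622 CPM in the marrow squares, again without overlap. Plek2 ran the other way, with 2938, 5242 and 7706 CPM in the liver against 830, 1814 and 2912 CPM in the marrow, without overlap but with the nearest squares almost touching. For Cd36 the ranges overlapped, at 524 to 4220 CPM in the liver and 4119 to 14845 CPM in the marrow. Klf1, Gata1 and Epor overlapped too, as did Hbb-bt, with medians of 72222 and 83064 CPM. Of the 35 erythroid genes, 30 overlapped between the squares of the organs, 2 were higher in all liver squares (Plek2 and Gamt) and 3 in all marrow squares (Aqp1, Ctse and Isg20). Over all 450 genes, 5.11% were higher in all liver squares and 2.67% in all marrow squares, or 7.78% in either direction.

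**Figure D4:**
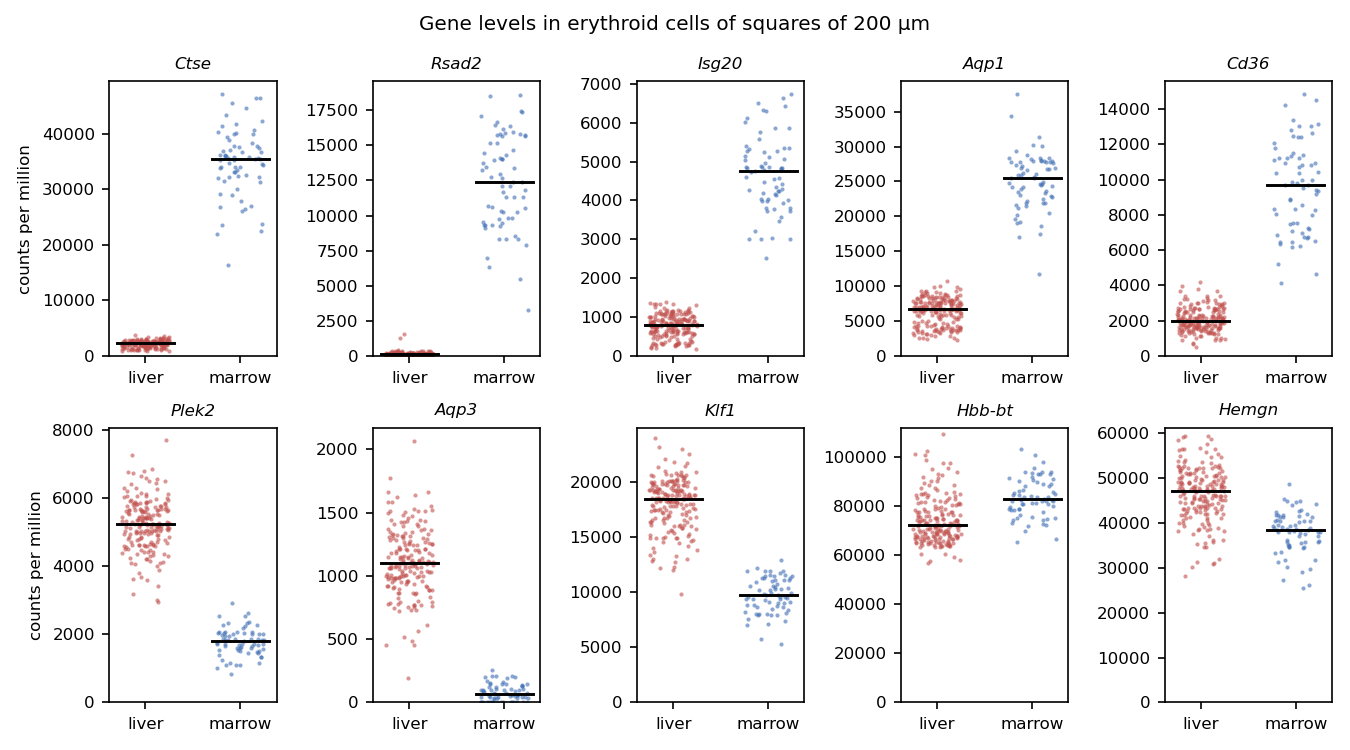
Level of 10 genes in CPM of the erythroid cells of each square of 200 µm, for 194 liver and 67 marrow squares; each point is 1 square and the black line is the median. The Ctse, Isg20, Rsad2 and Aqp1 squares of the organs do not overlap, whereas the Hbb-bt squares overlap over most of their range.

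Transcripts of other cell types in the gated cells were measured with marker lists. The 17 hepatocyte genes summed to 107240 CPM in liver and 6447 CPM in marrow erythroid cells, and to 108674 and 5816 CPM in the Slc4a1-free cells. The hepatocyte signal of the gated liver cells was thus about as high as that of the Slc4a1-free cells of the section. At least 1 count of the list was held by 97.7% of the gated liver cells and 46.1% of the gated marrow cells. Trf, the transferrin gene, had the most counts of the list in both organs, at 34087 and 3310 CPM, followed by Ambp in the liver and C3 (1495 CPM) in the marrow. The study names Trf among its erythroid markers and among the genes higher in C1q-positive than in other macrophages. Which cells these counts came from was not tested. Of the 16 hepatocyte genes compared, 15 were higher in the liver, and Cp, named after its value was seen, was higher in the marrow by a log2 ratio of −1.15, beside 18.7% of all genes higher in the liver. The 12 granulocyte genes summed to 5426 CPM in the liver and 44561 CPM in the marrow, against 25032 and 30195 CPM in the Slc4a1-free cells. All 12 were higher in the marrow, beside 36.0% of all genes, with a median log2 ratio of −3.74, and 25.4% of the liver and 78.2% of the marrow erythroid cells held a count. The granulocyte genes with the most counts were Mpo (2599 CPM) and Elane (987 CPM) in the liver and S100a9 (11755 CPM) and Mmp9 (7749 CPM) in the marrow.

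The 15 other macrophage genes summed to 13268 and 16031 CPM, with the most counts from the iron exporter Slc40a1 (7788 and 8335 CPM) and the adhesion molecule Vcam1 (1947 and 2576 CPM). At least 1 count of this list was held by 82.3% of the gated liver cells and 78.4% of the gated marrow cells. The 10 endothelial genes summed to 11395 and 8525 CPM, with the most counts from Eng (2053 and 2414 CPM), Oit3 in the liver (1992 CPM) and Kdr in the marrow (1640 CPM). The 3 megakaryocyte genes summed to 4137 and 6452 CPM, with Pf4 at 1582 and 2263 CPM, Vwf at 1555 CPM in the liver and Ppbp at 2430 CPM in the marrow. The 8 stromal genes summed to 9018 CPM in the liver and 36929 CPM in the marrow, with the most counts from Col1a1 (1976 and 15675 CPM) and Col1a2 (2761 and 13349 CPM). The cartilage genes summed to 237 and 475 CPM and the muscle genes to 1184 and 741 CPM. No gene of these lists was at 0 in either organ. Hepatocyte and granulocyte transcripts were therefore those that differed most between the gated cells of the organs, and their part in the ratios of the other genes was not tested.

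**Figure D5:**
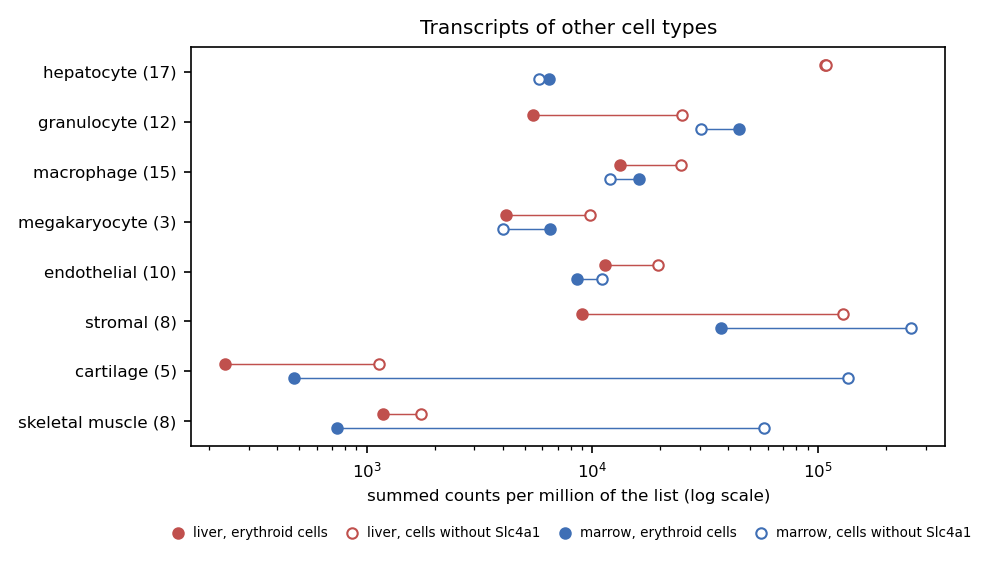
Summed level of 8 lists of marker genes in CPM (log axis) in erythroid cells (filled) and in cells without Slc4a1 (open) of the liver and of the marrow. The hepatocyte list is near 107240 CPM in the liver erythroid cells, and the granulocyte list is near 44561 CPM in the marrow erythroid cells.

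These lists also moved with Slc4a1. Over the same bins of Slc4a1 the hepatocyte list ran from 153519 to 98989 and 70510 CPM in the liver, and the granulocyte list from 65552 to 32718 and 22696 CPM in the marrow. The comparison was also made in the cells without any count of the hepatocyte, granulocyte, macrophage, megakaryocyte and endothelial lists, of which 250 were found in the liver (0.407%) and 326 in the marrow (2.63%). Counts of the stromal, cartilage and muscle lists were allowed in them. In these cells the log2 ratio was −4.74 (−5.24 to −4.27) for Ctse, −2.20 for Isg20, −3.43 for Aqp1, −1.73 for Cd36 and 1.72 for Plek2. Each was on the side of 2-fold found in all erythroid cells. Rsad2 had 3 counts in these liver cells and 503 in the marrow cells, and Aqp3 had 21 counts in the liver cells and 0 in the marrow cells. Klf1, Gata1 and Epor had log2 ratios of 0.65, 0.70 and 0.42 there. Podxl stayed past 2-fold toward the liver at 2.98 (1.81 to 4.38), and Ndufa4l2 at 1.43 (0.61 to 2.31). Ldhb was at 1.98 (−1.66 to 7.69), on 3 and 1 counts. Other genes, Gamt and Selenbp1 among them as given above, did not keep their ratio, and Slc14a1 passed 2-fold at −1.13 (−1.59 to −0.68). All of these cells together held only 20641 counts in the liver and 27146 in the marrow.

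A fetal liver at E13.5 and a marrow from a mouse of 89 weeks were imaged in a later run with a panel of 5050 genes and another way of outlining cells, so their values are given side by side only. The same rule gave 1251 of 5285 liver cells and 7596 of 143810 marrow cells. Of 233 genes on both panels, 61 had at least 100 counts in these cells, and 16 of them were erythroid genes. Past 2-fold were 2 of the 16 toward the liver and 4 toward the marrow, where 27.9% and 42.6% of the 61 genes were (70.5% in either direction). The median log2 ratio was −0.61 for the 16 erythroid genes and −0.76 for the 61 genes. Isg20 had a log2 ratio of −4.64 (−5.08 to −4.22) and Cd36 one of −3.80 (−4.24 to −3.40), while Podxl had 6.27 (5.19 to 7.61) and Ldhb 1.98 (1.39 to 2.56). These 4 genes were on the same side of 2-fold at E14.5 and P8. The other erythroid genes past 2-fold toward the marrow were not, namely Cenpf at −1.59 against 0.24 in the earlier pair, and Slc14a1, at 313 against 887 CPM in the later pair and a log2 ratio of −0.31 in the earlier one. Klf1, Gata1 and Epor were not higher in this fetal liver, with log2 ratios of −0.55, −0.76 and −0.12, the last with an interval from −0.26 to 0.02. Ctse, Rsad2, Aqp1 and Plek2 were not among the 233 genes on both panels, so the later pair gives no value for them.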

How the data were processed

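For each section the authors deposited counts (decoded transcripts per gene in each outlined cell, not normalized) and a list of all decoded transcripts, each with its quality score. The labels' run descriptions name Xenium Onboard Analysis (version 1.7.1.0; 3.1.0.4 for the later pair), whereas the study's methods name Space Ranger. Counts rebuilt from transcripts with a deposited score of at least 20 were identical, and 97.2% of these transcripts in the liver and 89.4% in the marrow lay in a cell. The sections held 20952143 and 6446659 counts, a median of 167 and 109 per cell. Counts were summed over erythroid cells and divided by their total. Ratios have Clopper-Pearson intervals on the split of the counts, levels exact Poisson intervals. Genes needed at least 100 counts over both sections. The erythroid cells, gene lists and comparisons were chosen with earlier results of these data known. The rule named all erythroid genes, the 8 largest ratios in each direction among other genes with at least 1000 counts, and the 2 members of each other-cell list with the most counts. Further genes are marked as chosen later, and some erythroid genes are not reported here by name. RefSeq promoter windows matched 24 of the 35 erythroid genes. Scripts were tested on simulated data and run with Python 3.11.15, numpy 2.4.6, scipy 1.17.1, pandas 2.3.3 and matplotlib 3.10.9. Alternatives changed the Slc4a1 threshold (at least 3, 10, or 20), the C1q condition, the quality score, the total used for scaling, the count minimum, and the cells or transcripts included.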

Additional observations from a re-analysis of the deposited data

How the results depend on the processing

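Each comparison had 1 section per group, so replicate error is unknown and depth limits only the counting error. No paired analysis was possible because each group held 1 section. The main counts were 84 genes higher in the liver and 162 in the marrow. In cells without any count of the hepatocyte, granulocyte, macrophage, megakaryocyte and endothelial lists they were 1 and 9 of 39 genes. There 1 erythroid gene, Plek2, was higher in the liver in place of 6, with 25 compared. Of the 6, Podxl, Gamt, Ndufa4l2 and Ldhb had fewer than 100 counts there and were not compared. The ratios of Podxl, Ndufa4l2 and Ldhb were still past 2-fold on those few counts. Only the interval of Podxl (1.81 to 4.38) lay wholly past 2-fold, and Ldhb rested on 3 and 1 counts. The Gamt ratio was not past 2-fold, on 3 and 3 counts with an interval from −2.51 to 3.30. The marrow count was 102 with counts per cell in place of CPM, 78 of 248 genes with at least 1000 counts, and 91 of 284 genes in cells with at least 20 Slc4a1 counts, a threshold chosen after seeing the data. Per cell, 12 erythroid genes were higher in the liver. The rise from 6 came from a shift that all genes shared. The matching liver count over all 450 genes is not given here, so the 12 cannot be read as particular to the erythroid genes. The counts per cell follow from adding 0.49 to every log2 ratio of the same 450 genes. The other settings compared fewer genes, and other causes were not tested. Of 51 genes named, 26 were past 2-fold and kept their sign under each alternative in which they had enough counts, and 25 of them also stayed past 2-fold; the exception was Ndufs8, at 0.98 in cells without counts of these 5 lists. Of the 25 within 2-fold, 18 stayed within it, and the sign turned for 9, not counting Selenbp1, which turned in cells without counts of these 5 lists but had fewer than 100 counts there.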

Other observations

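Genes that are not usually listed for red cells also stood out in the gated cells of both organs. These were chosen after their values were seen. Prx, known for the periaxin of myelin sheaths, had 19446 CPM in liver and 13185 CPM in marrow erythroid cells, and exceeded the cells without Slc4a1 by log2 ratios of 2.27 and 4.59. Gfap, the intermediate filament gene of astrocytes, had 2617 and 2176 CPM, with log2 ratios of 2.99 and 4.52 over the cells without Slc4a1. Mylk3, a myosin light chain kinase of heart muscle, had 6963 and 5829 CPM, and the tetraspanin gene Tspan8 had 5807 and 4286 CPM. Each of these genes lay within 2-fold between the organs. The gene of the monoglyceride lipase Mgll, at 5849 and 6648 CPM, and the olfactory marker gene Omp, at 299 and 216 CPM, were likewise more than 2-fold above the cells without Slc4a1 in both organs. How far the probes of these genes detect other transcripts was not tested.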
